A study of Mus musculus with 12 samples.

Results

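Cholesterol synthesis and transport was described through 28 mouse genes, given as a list of names drawn up by function, with earlier results of these arrays known. It held 7 genes of the mevalonate steps, 11 of the steps from squalene to cholesterol, 4 of sterol sensing, 2 of intracellular sterol transport and receptor uptake, 2 of efflux and 2 oxysterol receptors. A gene was represented by the probe set that the platform annotation gave that single symbol, and by the brightest such probe set where there were several. In this way 25 of the 28 genes were found among 22180 genes with such a probe set, and all 25 also passed the filter on dim values, which kept 17749 genes. Acat2 and Nr1h2 were not analysed here, and Idi1 was left out because its probe set shares a second symbol.

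The samples were sorted cells of acute myeloid leukemia in C57BL/6J mice, caused by the MLL-AF9 fusion. Hosts received 10 Gy of irradiation and then 50000 bone marrow stem and progenitor cells expressing MLL-AF9, which carried either intact floxed alleles of the energy-sensing kinase AMPK (AMPKfl/fl, here wild type) or deleted alleles (AMPKΔ/Δ, here knockout). At the onset of disease in each host, 5000 marrow cells per sample were sorted, either all GFP+ cells (whole leukemia) or L-GMP, leukemic granulocyte-macrophage progenitors that were GFP+, lin-, c-kit+, CD16/32+ and CD34+. Each of the 4 combinations of genotype and population had 3 arrays, 12 in all. All groups share the oncogene and the irradiated host. The sources used here do not give which AMPK subunit gene or exon was deleted, what drove the deletion, the age of the mice or whether the 3 arrays of a group came from separate mice, so p-values reflect only how far these arrays differ within a group, and part of that may be technical.

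Cholesterol is built from acetyl-CoA. The mevalonate steps end in farnesyl diphosphate, which squalene synthase and later enzymes turn into squalene, lanosterol and cholesterol. When sterols in the endoplasmic reticulum run low, the escort protein SCAP carries the transcription factor SREBP2 (gene Srebf2) to the Golgi, where it is cut and released to switch on the synthesis genes, whereas the INSIG proteins hold SCAP back when sterols are plentiful. Oxysterols, formed when sterols are in excess, activate the LXR receptors (Nr1h2 and Nr1h3), which raise the exporters Abca1 and Abcg1 and the ubiquitin ligase Mylip, which removes lipoprotein receptors. AMPK is known to phosphorylate and restrain the rate-limiting enzyme of the mevalonate steps and to inhibit SREBP processing in liver cells.

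Promoters of 23 of the 28 genes were found in the RefSeq promoter table (GRCm38.p6, 250 bases before to 50 after the gene start). The 4 below are shown because the genes represent different sides of this control, namely a synthesis enzyme (Hmgcs1), the feedback gene Insig1, the regulator Srebf2 and the LXR target Mylip. Each is printed 5′ to 3′ on the strand of its gene, all of them the plus strand. Capitals mark every match, on either strand, to the core of the sterol element of SREBP (TCACCCCAC, or more loosely TCACNCCAC, which includes the former). They also mark every match to the CCAAT box bound by NF-Y, an SREBP partner, and to the single nuclear receptor motif AGGTCA.
Hmgcs1, chr13:119690101-119690400: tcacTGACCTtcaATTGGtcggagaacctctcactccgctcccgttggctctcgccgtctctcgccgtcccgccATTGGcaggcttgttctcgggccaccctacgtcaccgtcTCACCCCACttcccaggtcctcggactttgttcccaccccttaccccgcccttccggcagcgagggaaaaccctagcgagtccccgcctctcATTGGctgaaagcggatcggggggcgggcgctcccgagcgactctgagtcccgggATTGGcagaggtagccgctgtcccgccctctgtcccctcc
Insig1, chr5:28071162-28071461: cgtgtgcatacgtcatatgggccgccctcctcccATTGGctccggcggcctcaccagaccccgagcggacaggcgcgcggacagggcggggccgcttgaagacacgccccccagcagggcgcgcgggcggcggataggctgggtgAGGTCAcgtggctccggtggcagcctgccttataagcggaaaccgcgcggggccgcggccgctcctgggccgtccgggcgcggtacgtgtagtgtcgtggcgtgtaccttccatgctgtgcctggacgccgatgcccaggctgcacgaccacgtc
Srebf2, chr15:82147019-82147318: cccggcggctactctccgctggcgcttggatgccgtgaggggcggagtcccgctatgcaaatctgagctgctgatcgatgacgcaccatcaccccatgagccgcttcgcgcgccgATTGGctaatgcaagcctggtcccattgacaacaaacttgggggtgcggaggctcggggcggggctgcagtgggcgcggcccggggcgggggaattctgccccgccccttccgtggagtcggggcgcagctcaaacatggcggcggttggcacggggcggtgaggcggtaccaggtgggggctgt
Mylip, chr13:45389492-45389791: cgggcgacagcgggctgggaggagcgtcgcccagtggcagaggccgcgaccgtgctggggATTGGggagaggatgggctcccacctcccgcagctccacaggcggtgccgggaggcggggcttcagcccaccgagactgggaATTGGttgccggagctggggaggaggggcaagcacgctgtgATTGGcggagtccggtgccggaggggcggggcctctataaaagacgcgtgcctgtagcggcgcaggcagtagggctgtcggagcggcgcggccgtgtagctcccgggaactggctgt

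The Hmgcs1 window held 1 sterol element core, 4 CCAAT boxes and 1 receptor motif. Hmgcs1 was the 1 gene of the 23 with an exact match to either form of the sterol core. The strict core was present in 0.551% of all 32851 promoter windows and the looser one in 1.24%. A CCAAT box was present in 18 of the 23 genes, and in 14 of the 15 synthesis genes, against 41.1% of all 27025 genes with a window. The Mylip window held 3 CCAAT boxes and the Insig1 and Srebf2 windows 1 each. The receptor motif was present in 3 of the 23 genes, Dhcr7, Hmgcs1 and Insig1, against 18.1% of all genes. These are exact matches of letters in a short window, so sterol elements with other letters were not counted, and binding was not measured.

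Values are log2 of the deposited intensity, so a difference of 1 is a doubling, and levels are compared only within a gene. Prkaa1, the AMPK alpha 1 subunit gene, measured 7.27 ± 0.27 (SD, n = 3) in knockout against 8.24 ± 0.49 in wild-type whole leukemia, and 7.0 ± 0.27 against 8.15 ± 0.17 in L-GMP, with no overlap of arrays in either population. Prkaa2, the alpha 2 subunit gene, was near the filter of 4.72 in all groups (4.76 to 4.88). Of the genes behind the sorting gate, Cd34 was higher in wild-type L-GMP (9.76 ± 0.25) than in wild-type whole leukemia (8.74 ± 0.56), and 9.67 ± 0.22 against 6.41 ± 0.78 in the knockout. Kit had means of 7.56 and 8.64 in wild-type and knockout L-GMP against 7.0 and 7.5 in whole leukemia. The CD16/32 genes did not rise with the gate in the wild type, where Fcgr3 had means of 8.95 in L-GMP and 9.27 in whole leukemia and Fcgr2b 7.37 and 7.42. In the knockout the means were 9.02 and 8.94 for Fcgr3 and 7.32 and 6.85 for Fcgr2b. Hoxa9 and Meis1, targets of MLL-AF9, had group means of 6.98 to 8.01 and 7.41 to 8.83. Between arrays r lay at 0.902 to 0.986. Array 2 of knockout whole leukemia was set apart by its markers. Its mean over 6 of 10 listed erythroid markers with a probe set was 8.87 against 5.08 to 5.98 in the other 11 arrays, and its mean over 11 of 11 neutrophil markers was 11.58 against 6.34 to 10.14. In sorted bulk cells, fewer cells of a type and less RNA per cell cannot be told apart.

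None of the 25 cholesterol genes passed the test for a difference between AMPK knockout and wild type in either population. In L-GMP 10 were higher and 15 lower in the knockout, with differences from -0.39 (Ebp) to 0.61 (Scap) and a median of -0.03, beside 0.02 over all 17749 genes. In whole leukemia 12 were higher and 13 lower, from -0.41 (Abcg1) to 0.35 (Srebf2) with a median of -0.01, beside 0.00 over all genes. By limma over all genes 0 of 25 members had an adjusted p under 0.05 in L-GMP, where 0.00563% of genes did, and 0 of 25 in whole leukemia, where 0.0% did. At an unadjusted p under 0.05 there was 1 member in L-GMP (4% of members, 4.13% of all genes) and 0 in whole leukemia (5.97% of all genes). Arrays of the genotypes did not overlap for 2 members in L-GMP (8%, against 9.48% of all genes) and 2 in whole leukemia (8%, against 11.2%). These shares lie near or below the background.

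The intervals bound what could have been missed. Over the 25 genes the 95% intervals of the knockout effect ran from -0.97 to 1.33 in L-GMP, which is 0.51-fold to 2.52-fold, and from -1.19 to 0.99 in whole leukemia, which is 0.439-fold to 1.99-fold. For a typical member the interval reached 0.43 log2 to either side, against 0.34 for a typical gene of the array. These intervals are not adjusted for the number of genes tested, and larger changes also went uncalled, such as the -1.15 of Prkaa1 in L-GMP (adjusted p = 0.622).

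**Figure D1:**
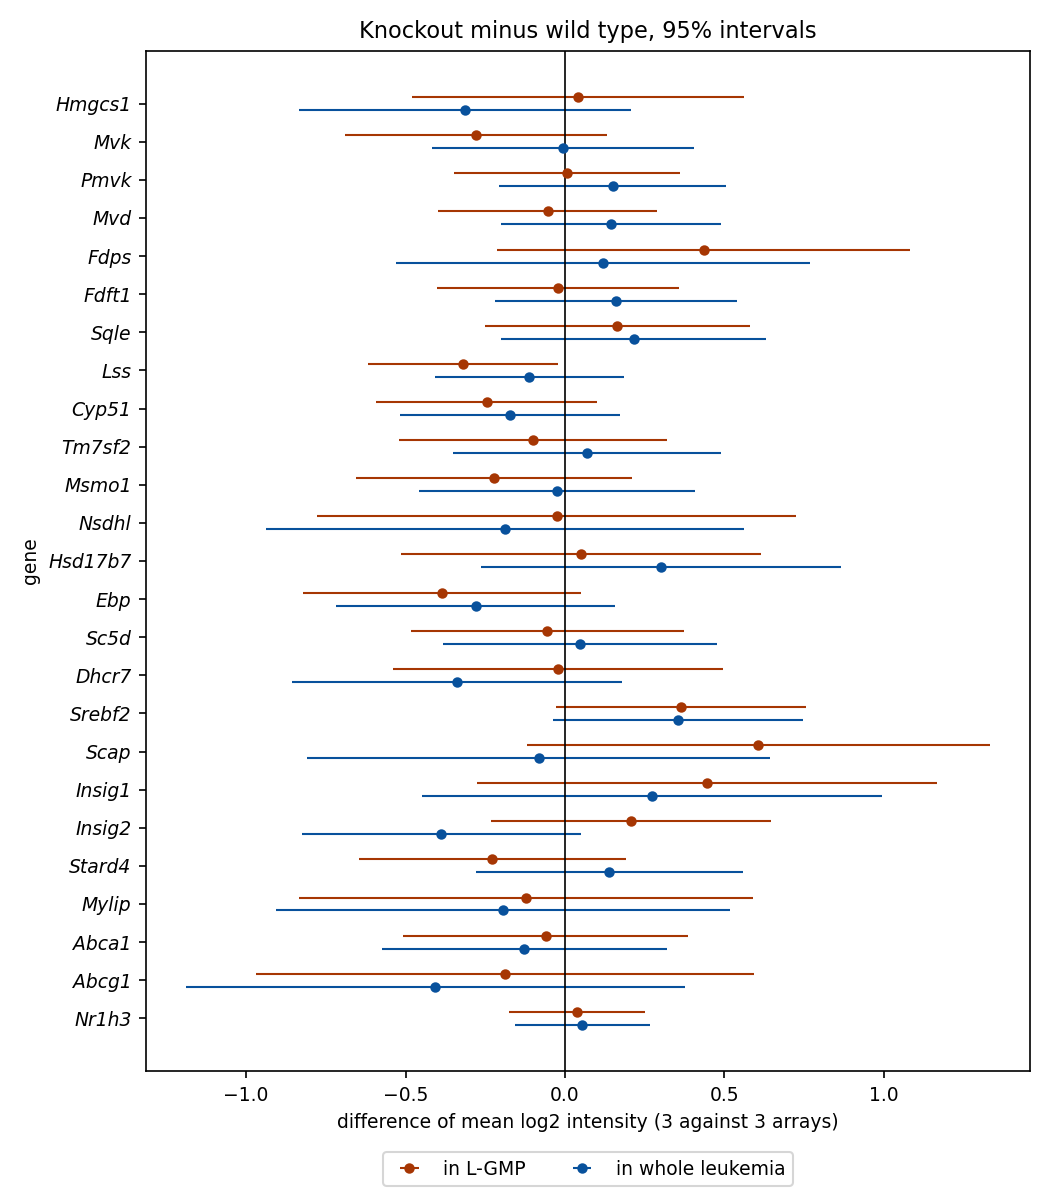
Knockout minus wild type for the 25 genes, in order of the pathway from Hmgcs1 down to Nr1h3, as the difference of mean log2 intensity (x axis) with its 95% interval from limma, in L-GMP and in whole leukemia (3 against 3 arrays each). All intervals but that of Lss in L-GMP (-0.62 to -0.02) include 0, and Lss did not pass after adjustment.

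When both populations were averaged, 10 members were higher and 15 lower in the knockout and 0 of 25 were called (0.0338% of all genes were), with 3 members at an unadjusted p under 0.05, 12% of members against 7.72% of all genes. These were Srebf2, Ebp and Lss. With same-numbered arrays of a genotype as a random replicate block, only Srebf2 remained (4% of members, against 6.13% of all genes). Srebf2, which encodes SREBP2, had the lowest p. Srebf2 measured 7.31, 6.95 and 6.88 in wild-type L-GMP and 7.30, 7.32 and 7.61 in knockout L-GMP. In whole leukemia it measured 7.36, 6.91 and 6.87 in the wild type and 7.40, 7.63 and 7.18 in the knockout. In both populations wild-type array 1 lay within the knockout range while wild-type arrays 2 and 3 lay below every knockout array. The averaged difference was 0.36 (SE 0.125, 95% interval 0.08 to 0.64, 1.28-fold) and did not pass (adjusted p = 0.539). It was about equal in L-GMP (0.36, SE 0.18) and whole leukemia (0.35, SE 0.18). Wild-type arrays of the same number deviated alike, by 0.31, -0.14 and -0.18 in whole leukemia and 0.27, -0.10 and -0.17 in L-GMP. The knockout arrays did not do so. In the wild type the populations were therefore not independent for Srebf2, while the SE of 0.125 treats all arrays as independent.

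Ebp, the sterol isomerase of a late step, had the next lowest p of that average. It measured 7.45, 7.04 and 6.90 in wild-type and 6.63, 6.99 and 6.61 in knockout L-GMP, and 6.64, 6.98 and 7.07 in wild-type and 6.90, 6.30 and 6.65 in knockout whole leukemia. The groups overlapped in both populations, and the average of -0.33 (SE 0.14) did not pass (adjusted p = 0.62). Lss, lanosterol synthase, measured 5.94, 5.58 and 5.46 in wild-type L-GMP and 5.39, 5.12 and 5.51 in knockout L-GMP, a difference of -0.32 (SE 0.13, adjusted p = 1.0). In whole leukemia its values were 5.41, 5.47 and 5.48 in the wild type and 5.39, 5.29 and 5.34 in the knockout. These did not overlap, but the difference was only -0.11 (SE 0.13, adjusted p = 0.923).

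Cyp51, which removes a methyl group from lanosterol, measured 6.31, 5.94 and 5.81 in wild-type L-GMP and 5.80, 5.76 and 5.75 in knockout L-GMP. The genotypes did not overlap there, though the closest arrays were almost equal, and the difference of -0.25 (SE 0.16) did not pass (adjusted p = 1.0). In whole leukemia Cyp51 measured 5.74, 5.67 and 5.62 in the wild type and 5.83, 5.27 and 5.42 in the knockout, which overlap. Dhcr7, which makes cholesterol from 7-dehydrocholesterol, measured 6.51, 6.47 and 6.43 in wild-type and 6.62, 5.57 and 6.20 in knockout whole leukemia. The difference was -0.34 (SE 0.23, adjusted p = 0.858). The lowest array by far was knockout array 2, the one with high erythroid and neutrophil markers, whose part was not tested. In L-GMP Dhcr7 differed by -0.02.

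The 4 sterol sensing genes had the highest group median in L-GMP. All 4 were higher in the knockout, with a median difference of 0.40, while the 16 synthesis enzymes had a median of -0.04, with 5 higher and 11 lower. The mean over the 4 genes was 7.07, 7.13 and 6.97 in the knockout L-GMP arrays and 6.57, 6.67 and 6.71 in the wild type, with no overlap. In whole leukemia the same mean was 7.24, 6.50 and 6.77 in the knockout and 6.96, 6.75 and 6.68 in the wild type, with the knockout arrays on both sides. None of the 4 genes passed the test in either population, and no test was made of the mean, since earlier results were known when the list was drawn up. In the same L-GMP arrays the mean over 11 of 11 monocyte and macrophage markers was 6.96 to 7.46 in the knockout against 7.40 to 8.22 in the wild type. The genotypes did not overlap in the mean over 7 of 7 MLL-AF9 target genes, at 6.26 to 6.87 in the knockout against 7.16 to 7.56, or over 7 of 7 T and NK cell markers, at 5.15 to 5.63 against 4.88 to 5.0. Knockout array 2 had an eosinophil, basophil and mast cell mean (8 of 9 markers) of 7.69 against 5.54 to 5.94 in the other 5. Their part in the difference was not tested.

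Scap, the SREBP escort, carried the largest single difference. It measured 7.81, 8.40 and 7.60 in knockout L-GMP against 7.0, 7.43 and 7.56 in wild-type L-GMP. The lowest knockout array lay just above the highest wild-type array, and the difference of 0.61 (SE 0.33, 1.52-fold) did not pass (adjusted p = 1.0). A second, dimmer Scap probe set gave 0.14. In whole leukemia Scap was spread widely in the knockout, at 8.15, 6.71 and 7.46, against 7.61, 7.36 and 7.62 in the wild type.

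Insig1 and Insig2 encode the proteins that retain SCAP. Insig1, itself a target of SREBP2, measured 6.93, 6.67 and 6.60 in wild-type and 7.32, 7.29 and 6.93 in knockout L-GMP, where the lowest knockout array matched the highest wild-type array to 2 decimals (difference 0.44, adjusted p = 1.0). In whole leukemia it measured 7.32, 6.81 and 6.47 in the wild type and 7.95, 6.54 and 6.93 in the knockout, so that both ends of the knockout range lay far apart. Insig2 measured 5.56, 5.95 and 5.75 in wild-type and 5.47, 5.11 and 5.52 in knockout whole leukemia, without overlap (difference -0.39, SE 0.20, adjusted p = 0.829). In L-GMP its values were 5.04, 5.63 and 5.79 in the wild type and 5.84, 5.51 and 5.73 in the knockout, a difference of 0.21 in the other direction. The interaction of genotype and population for Insig2 was 0.59 (SE 0.28) and did not pass (adjusted p = 1.0).

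Over all 25 members 0 interactions were called (0.0% of all genes were), and 0 had an unadjusted p under 0.05, against 2.06% of all genes. After Insig2 the lowest p-values were those of Scap (0.69, SE 0.46), Stard4 (-0.37, SE 0.27) and Lss (-0.21, SE 0.19), each at an adjusted p of 1.0. Stard4, a carrier of cholesterol between membranes, was highest in wild-type L-GMP array 1, at 6.11. Its other wild-type L-GMP arrays measured 5.34 and 5.37, the knockout L-GMP arrays 5.28, 5.49 and 5.36, and the whole leukemia arrays 5.38, 5.24 and 5.46 in the wild type and 5.63, 5.56 and 5.31 in the knockout.

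**Figure D2:**
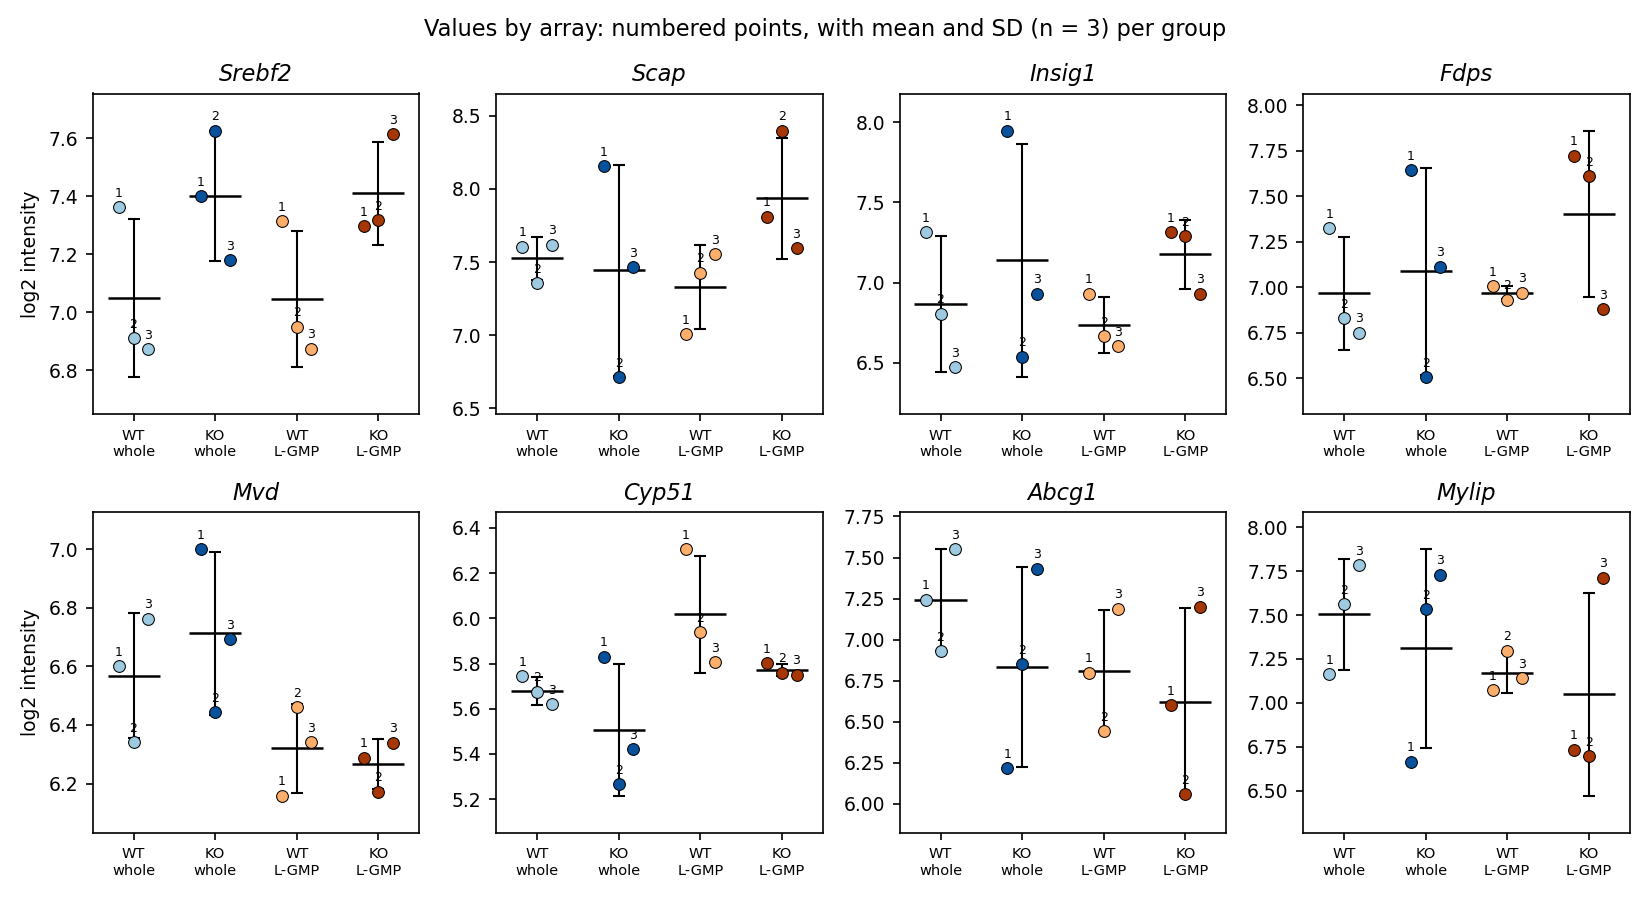
Log2 intensity of 8 genes in each array (y axis, with its own scale for each gene and not starting at 0), by group on the x axis (WT wild type, KO knockout), with the array number above each point and the mean and SD of 3 arrays as lines. Srebf2 averages 7.05 in both wild-type groups and 7.40 and 7.41 in the knockout groups. Fdps, Abcg1 and Mylip spread widely among arrays of both knockout groups, and Insig1 and Scap most in knockout whole leukemia.

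The enzymes of the mevalonate steps showed small and mixed differences. Hmgcs1, which makes HMG-CoA, differed by 0.04 in L-GMP and -0.31 in whole leukemia, where wild-type array 1 stood at 7.26 against 6.42 to 6.73 in the other 5. Mvk, Pmvk and Mvd, the 2 kinases and the decarboxylase that turn mevalonate into isopentenyl diphosphate, differed by -0.28, 0.01 and -0.05 in L-GMP and by -0.01, 0.15 and 0.14 in whole leukemia. Fdps, farnesyl diphosphate synthase, measured 7.01, 6.93 and 6.97 in wild-type L-GMP and 7.72, 7.61 and 6.88 in the knockout. Knockout arrays 1 and 2 were above every wild-type array and array 3 below them all (difference 0.43, adjusted p = 1.0).

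From squalene onwards, 9 of 11 enzymes were lower and 2 higher in knockout L-GMP, with a median of -0.06, none passing the test. Sqle, squalene epoxidase, was the highest of them at 0.16, and Fdft1, squalene synthase, differed by -0.02. Msmo1, Nsdhl and Hsd17b7, which together remove methyl groups of the sterol ring, differed by -0.22, -0.03 and 0.05 in L-GMP and by -0.03, -0.19 and 0.30 in whole leukemia. Tm7sf2 and Sc5d, reductase and desaturase of late steps, differed by no more than 0.10 in size in either population. Of the LXR side, Abca1, Abcg1 and Mylip all had lower means in the knockout, by -0.06, -0.19 and -0.12 in L-GMP and -0.13, -0.41 and -0.19 in whole leukemia, each well within the spread of arrays. Nr1h3, the LXR alpha gene, was dim at group means of 4.91 to 4.98 and differed by 0.04 and 0.05.

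None of the 25 genes passed the test for a difference between L-GMP and whole leukemia. In the wild type 12 members were higher and 13 lower in L-GMP, from -0.43 (Abcg1) to 0.34 (Cyp51), and in the knockout 11 were higher and 14 lower, from -0.45 (Mvd) to 0.49 (Scap). By limma 0 of 25 were called in either genotype or in the average of both, where 0.0%, 0.0% and 0.0% of all genes were called. The members at an unadjusted p under 0.05 numbered 0 in the wild type (2.5% of all genes), 1 in the knockout (7.39% of all genes) and 2 in the average (7.52% of all genes, 8% of members). Arrays of the populations did not overlap for 3 members in the wild type (12%, against 10.3% of all genes) and for 1 in the knockout (4%, against 10.2%). Without knockout whole leukemia array 1, 40 genes of the array were called in the knockout and 9 in the average, none of them members. The members at an unadjusted p under 0.05 then numbered 3 in the knockout and 4 in the average (12% and 16% of members, against 15.6% and 14.7% of all genes). In the same arrays the neutrophil marker mean was 6.34 to 8.57 in L-GMP against 7.53 to 11.58 in whole leukemia, and its part was not tested.

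Mvd, mevalonate diphosphate decarboxylase, had the lowest p. It measured 6.60, 6.34 and 6.76 in wild-type and 7.0, 6.44 and 6.69 in knockout whole leukemia, and 6.16, 6.46 and 6.34 in wild-type and 6.29, 6.17 and 6.34 in knockout L-GMP. The populations overlapped in the wild type and not in the knockout. The average difference of -0.35 (SE 0.11, 95% interval -0.59 to -0.10, 0.786-fold) did not pass (adjusted p = 0.655). Cyp51 went the other way, higher in L-GMP by 0.30 on average (SE 0.11, adjusted p = 0.661), with no overlap in the wild type.

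Sc5d measured 7.28, 7.26 and 7.33 in wild-type whole leukemia and 7.75, 7.58 and 7.53 in wild-type L-GMP, also without overlap. In the knockout it measured 7.54, 6.92 and 7.56 in whole leukemia and 7.41, 7.34 and 7.95 in L-GMP, and the averaged difference was 0.28 (SE 0.14, adjusted p = 0.668). Fdft1 measured 6.70, 6.96 and 6.80 in wild-type and 7.01, 7.26 and 6.67 in knockout whole leukemia, against 6.40, 6.90 and 6.78 and 6.73, 6.51 and 6.77 in L-GMP. Its groups overlapped in both genotypes, and its averaged difference was -0.22 (SE 0.12, adjusted p = 0.682). Abca1 was the remaining member without overlap in the wild type, at 5.60, 5.64 and 5.74 in whole leukemia and 5.54, 5.37 and 5.5 in L-GMP (difference -0.19, adjusted p = 1.0).

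Same-numbered wild-type arrays of the populations deviated together, so the wild-type differences were also read by pair. For 8 of the 25 members all 3 pairs went the same way (32%, against 31.1% of all genes), namely Cyp51, Msmo1, Nsdhl and Sc5d, higher in L-GMP, and Fdft1, Mylip, Abca1 and Abcg1, lower. Abcg1 was lower in L-GMP by a similar amount in each pair, with differences of -0.44, -0.49 and -0.36. A block by replicate number was also fitted, with 1 shift per number shared by all 4 groups. It therefore also used the knockout arrays, though deviations across genotypes correlated at only -0.10 to 0.19. With it the Abcg1 difference of -0.43 had an SE of 0.21 in place of 0.35 and a 95% interval of -0.92 to 0.06. It did not pass (adjusted p = 1.0), and this SE is not that of the wild-type pairs alone. Under that block 1 member, Cyp51, had an unadjusted p under 0.05 in the wild type (4%, against 2.99% of all genes).

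**Figure D3:**
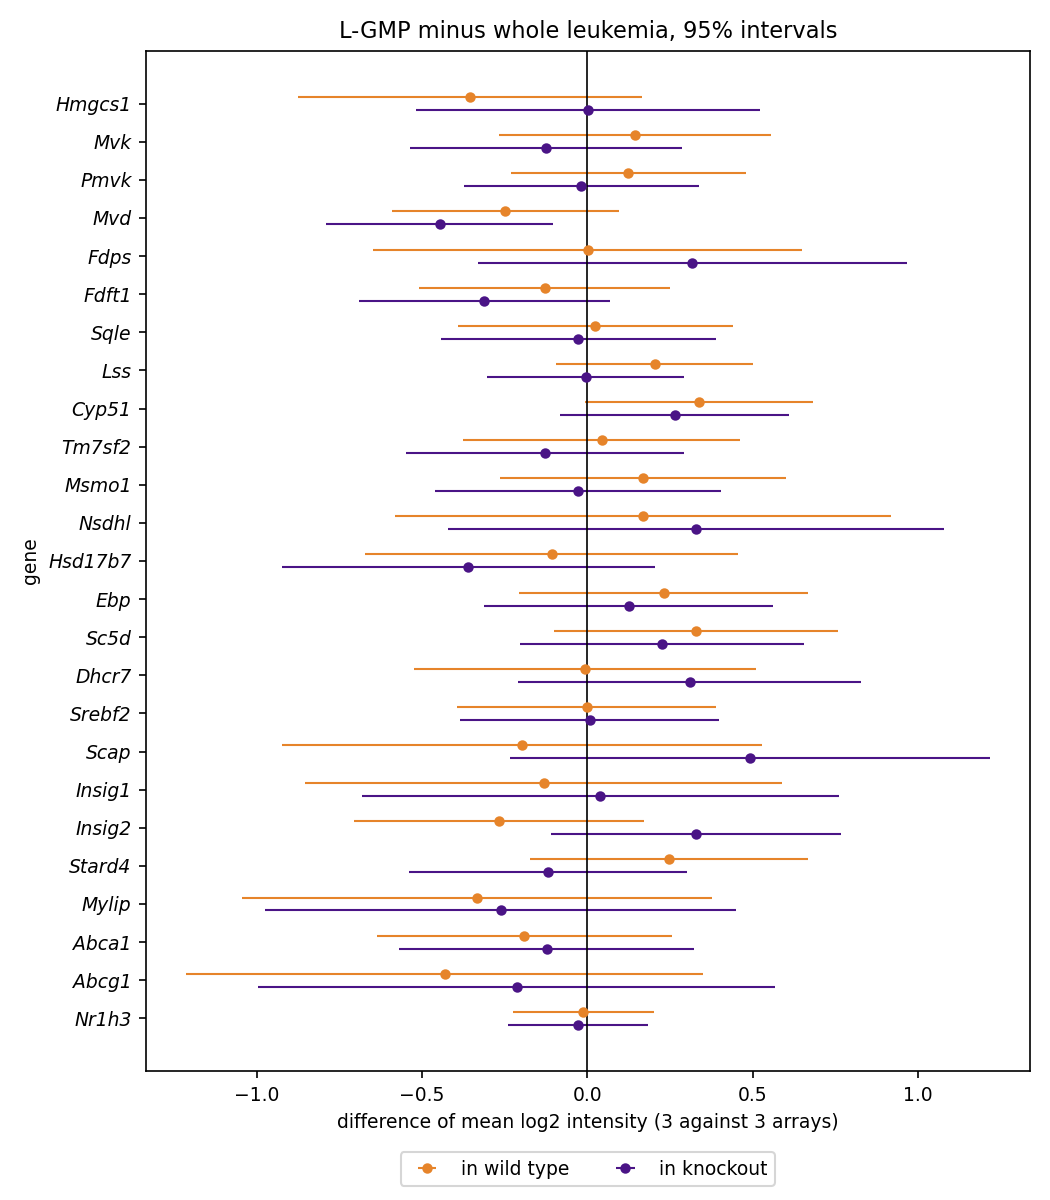
L-GMP minus whole leukemia for the 25 genes, separately by genotype, as the difference of mean log2 intensity (x axis) with 95% intervals from limma (3 against 3 arrays each). Points lie between -0.45 and 0.49, on both sides of 0, and all intervals but that of Mvd in the knockout (-0.79 to -0.10) include 0.

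Arrays of 1 group varied widely in these genes. The pooled SD within groups had a median of 0.26 over the 25 genes against 0.19 over all genes. Abcg1 (0.48), Nsdhl (0.46), Scap (0.45), Insig1 (0.44) and Mylip (0.44) varied most, each at or above 89.4% of all genes, and Nr1h3 (0.10) least. Knockout whole leukemia array 2 was the lowest of the 12 arrays for 9 of the 25 members (36%), against 20.3% of all genes. These were Fdps, Cyp51, Tm7sf2, Msmo1, Nsdhl, Ebp, Sc5d, Dhcr7 and Scap, most of them late enzymes of the sterol steps. The same array was the highest for 2 members, Fdft1 and Srebf2 (8%, against 16.1% of all genes). Knockout whole leukemia array 1 was the highest for 5 members (20%, against 5.56% of all genes), Mvd, Tm7sf2, Msmo1, Hsd17b7 and Insig1, and the lowest for Mylip and Abca1. Wild-type L-GMP array 1 was the lowest for 5 members (20%, against 11.6% of all genes), Hmgcs1, Mvd, Fdft1, Hsd17b7 and Insig2. It was the highest for 5 (20%, against 9.17%), Lss, Cyp51, Ebp, Stard4 and Nr1h3.

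**Figure D4:**
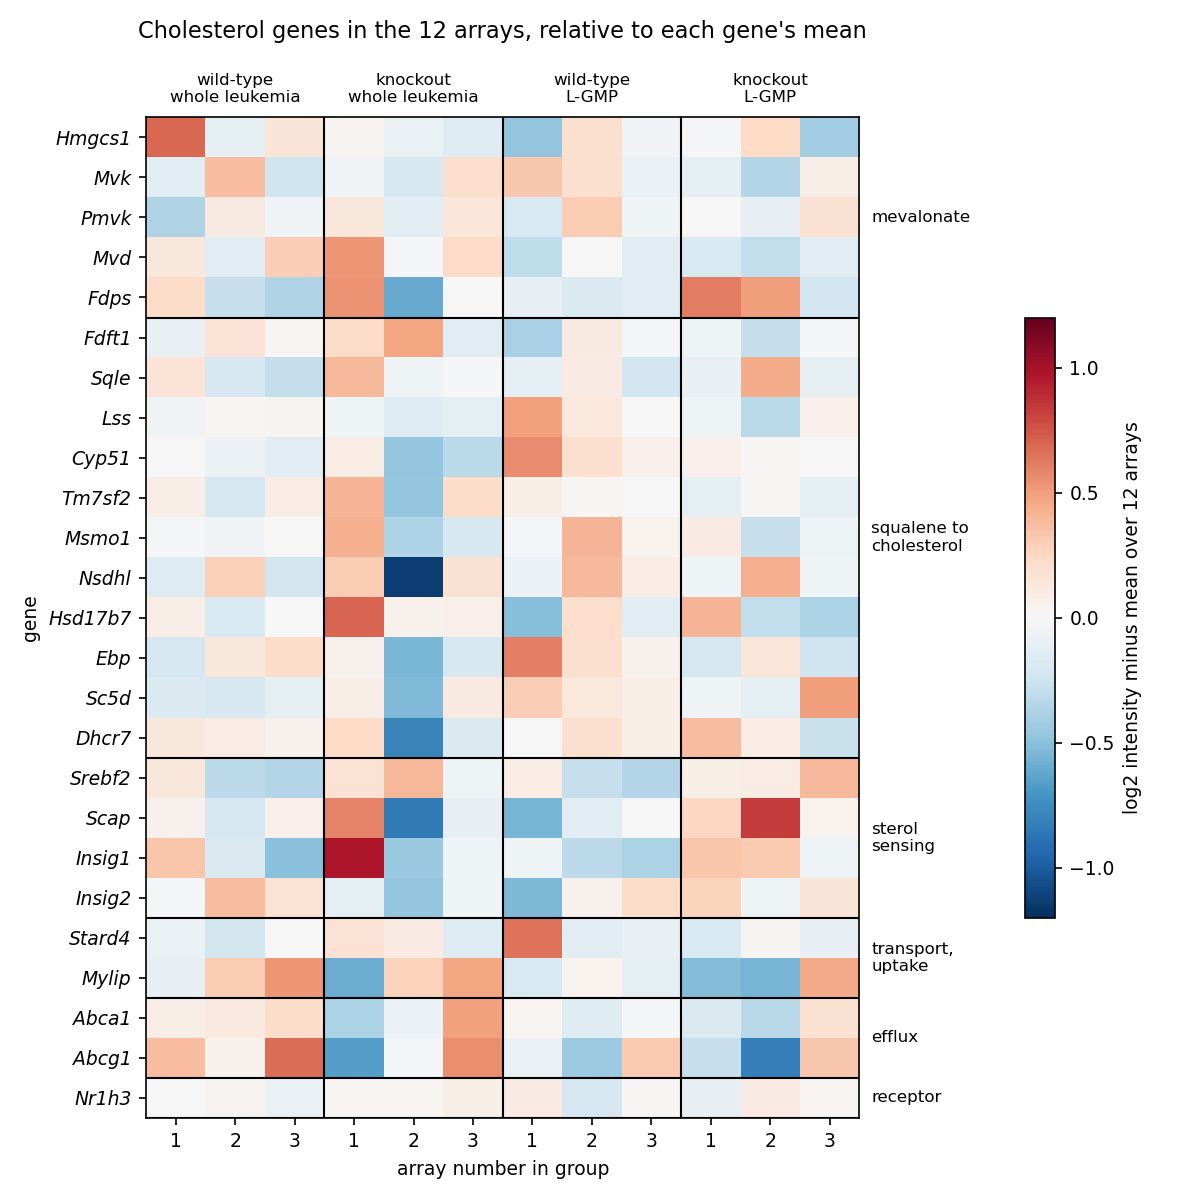
The 25 genes (rows, by role) in the 12 arrays (columns, by group and array number), as log2 intensity minus the gene's mean over the 12 arrays, red above and blue below it. No group forms a block of 1 colour, knockout whole leukemia array 2 is blue over most late enzymes, and array 1 of the same group is red over synthesis genes and blue over Mylip, Abca1 and Abcg1.

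To describe how members varied together, each value was taken as its deviation from its group mean, which removes genotype and population. Genes were then correlated over the 12 arrays, with at most 8 independent deviations. Same-numbered arrays of both populations also deviated together, at r of 0.30 to 0.62 in wild type and 0.09 to 0.43 in knockout. The gene correlations are therefore less well supported than 8 independent deviations would make them. These correlations are descriptions without a test. The points share the arrays, and the pairs named here were picked after their values were seen, as the extremes of 300 member pairs. The highest were Fdps with Dhcr7 (r = 0.90, rho = 0.74), Fdps with Insig1 (r = 0.89, rho = 0.90) and Abca1 with Abcg1 (r = 0.89, rho = 0.86). Of all 157504626 pairs of tested genes, 0.161%, 0.199% and 0.215% had an r at least as high. In the same order, r was 0.27, 0.92 and 0.72 within the wild-type arrays and 0.97, 0.89 and 0.96 within the knockout arrays. The lowest were Fdps with Mylip (r = -0.86, rho = -0.84), Insig2 with Stard4 (r = -0.84, rho = -0.76) and Insig1 with Mylip (r = -0.83, rho = -0.87), reached or passed by 0.315%, 0.504% and 0.62% of all pairs.

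Fdps and Insig1, a synthesis enzyme and the feedback gene, were high in the arrays where Mylip was low. Mylip measured 7.07, 7.30 and 7.14 in wild-type and 6.73, 6.70 and 7.71 in knockout L-GMP, and 7.16, 7.56 and 7.78 in wild-type and 6.67, 7.53 and 7.73 in knockout whole leukemia. In the whole leukemia groups Fdps measured 7.32, 6.83 and 6.75 in the wild type and 7.64, 6.51 and 7.11 in the knockout. Knockout array 3 of L-GMP had the highest Mylip and the lowest Fdps and Insig1 of its group. The Fdps and Mylip correlation was -0.96 without knockout whole leukemia array 2, -0.98 within the 6 L-GMP arrays and -0.79 within the 6 whole leukemia arrays. The -0.98 rests almost wholly on the 3 knockout L-GMP arrays, where Fdps deviated by 0.32, 0.21 and -0.52. In wild-type L-GMP it deviated by only -0.04 to 0.04.

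Abcg1, the cholesterol exporter, measured 6.80, 6.44 and 7.19 in wild-type and 6.60, 6.06 and 7.20 in knockout L-GMP, and 7.24, 6.93 and 7.55 in wild-type and 6.22, 6.85 and 7.43 in knockout whole leukemia. Array 3 was the highest of every group. Abca1 measured 5.34, 5.18 and 5.70 in knockout L-GMP and 5.13, 5.45 and 6.01 in knockout whole leukemia, again highest in array 3. In knockout arrays 3 the mean over 9 of 10 G2/M cell cycle markers was the lowest of all arrays, at 7.09 in whole leukemia and 6.92 in L-GMP against 7.98 to 9.0 in the other 10. Deviations of the G2/M mean correlated at -0.74 with Abca1, -0.65 with Abcg1 and -0.45 with Mylip, but at 0.03 with Fdps and -0.07 with Insig1. The G2/M correlation furthest from 0 among the members was that of the synthesis enzyme Sc5d, at -0.90. Deviations of the neutrophil mean correlated at 0.55 with Abcg1, 0.38 with Mylip, 0.27 with Abca1, -0.72 with Insig1 and -0.49 with Fdps. Their part in the pattern was not tested.

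Over whole roles the pattern was weaker. Of the 48 pairs of a synthesis enzyme with Mylip, Abca1 or Abcg1, 36 were negative, with a median r of -0.34. The 3 pairs among those LXR targets had a median of 0.81. Within the wild-type arrays alone these 3 had an r of 0.03 (Mylip with Abcg1), 0.28 (Mylip with Abca1) and 0.72 (Abca1 with Abcg1). Within the knockout arrays r was 0.92, 0.88 and 0.96, in the same order. The 120 pairs among the 16 synthesis enzymes had a median of 0.32, with 88 positive, against 0.00 over all gene pairs. Without knockout whole leukemia array 2, in which so many enzymes were low, that median was 0.10, while the medians against and within the LXR targets were -0.40 and 0.87. With the erythroid marker mean, which was high in that array, Dhcr7 correlated at -0.83 and Tm7sf2 at -0.90, the lowest of the 16 enzymes. The other enzymes ran from -0.80 (Nsdhl) to 0.40 (Fdft1), with Sqle at -0.25 and Hmgcs1 at -0.01. The part of erythroid cells was not tested. For Srebf2 against the 16 enzymes, 5 correlations were positive and the median was -0.17 (0.03 without that array). For Insig1 14 were positive and the median was 0.45 (0.27 without it).

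**Figure D5:**
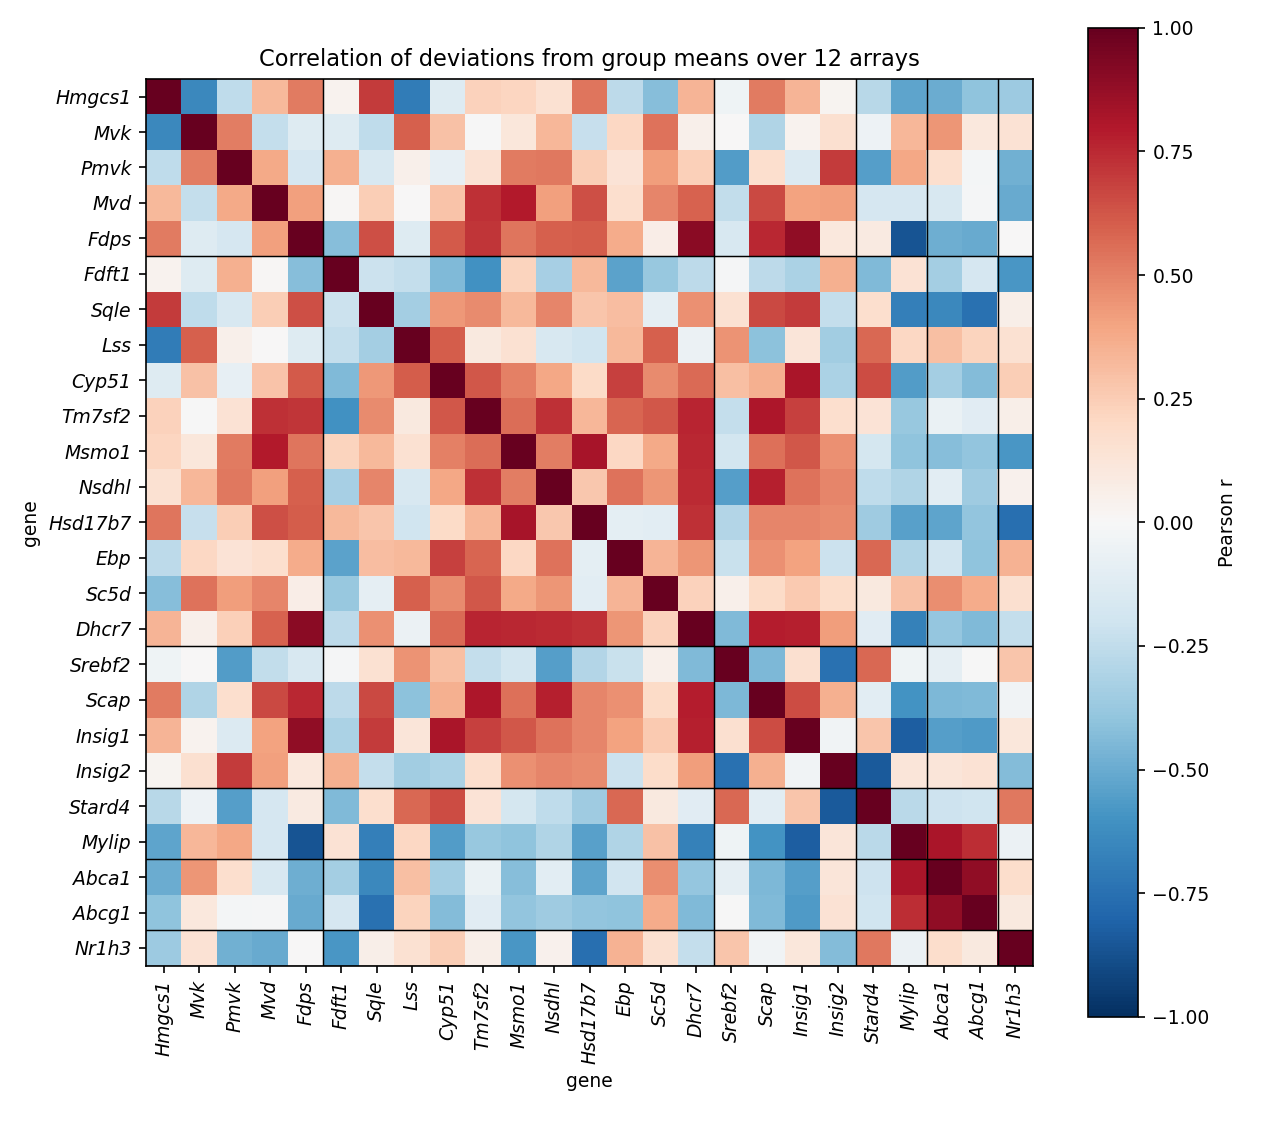
Pearson correlation between the 25 genes (both axes, in order of role, with lines between roles) of their deviations from group means over the 12 arrays. Mylip, Abca1 and Abcg1 form a red block and face a mostly blue band against Fdps, Sqle and Insig1, with r of Fdps and Mylip at -0.86.

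A wider list of 37 other genes of sterol handling (transport proteins, receptors, esterases, SREBP proteases, oxysterol enzymes and promoter factors such as NF-Y and Sp1) had 33 genes tested. In L-GMP 18 were higher and 15 lower in the knockout, and in whole leukemia 14 and 19, with medians of 0.02 and -0.02, and limma called 0 of the 33 across all 7 comparisons. In whole leukemia 7 of the 33 had an unadjusted p under 0.05 (21.2%, against 5.97% of all genes). Acat1, a mitochondrial thiolase that works on acetoacetyl-CoA, measured 8.39, 8.24 and 8.11 in the wild type and 7.89, 7.34 and 7.89 in the knockout there (difference -0.54, SE 0.15, adjusted p = 0.74). Lrp8, a lipoprotein receptor, measured 6.12, 6.41 and 6.42 in the wild type and 6.58, 7.27 and 6.75 in the knockout (difference 0.55, SE 0.18, adjusted p = 0.808).

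Osbpl8, an oxysterol-binding protein gene, differed by 0.45 (SE 0.14, adjusted p = 0.782) and Nfya, the sequence-binding subunit of NF-Y, by -0.37 (SE 0.13, adjusted p = 0.827). Whole leukemia arrays of the genotypes did not overlap for 5 of the 33 genes (15.2%, against 11.2% of all genes), these 4 and Npc2, a lysosomal cholesterol carrier that differed by -0.61 (adjusted p = 0.827). In Acat1, Lrp8, Osbpl8 and Npc2 knockout array 2 was the most extreme. Npc2 stood at 9.594, 8.829 and 9.831 across the knockout whole leukemia arrays. The highest of these was almost equal to the lowest wild-type array, at 9.833. In L-GMP 0 of the 33 had an unadjusted p under 0.05, and those of lowest p were Scarb1, a lipoprotein receptor (0.41), Lrp8 (0.29), Vldlr (0.18) and the SREBP protease gene Mbtps1 (-0.31). Between populations the lowest p was that of Nfya in the knockout, 0.48 higher in L-GMP (adjusted p = 0.671). Nfya measured 6.56, 6.59 and 6.56 in knockout whole leukemia and 6.98, 7.02 and 7.14 in knockout L-GMP, against 7.20, 6.77 and 6.87 and 7.18, 6.86 and 6.88 in the wild type.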

How the data were processed

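Expression was measured on 12 one-colour arrays, 3 in each of 4 groups. The deposited values are linear intensity for 33794 probe sets (18.0 to 9108), with array medians of 36.9 to 39.3. NuGEN kits were used for amplification and biotin labelling, per the labels' protocols. For the summary and normalization of intensities by the authors, no method was given in the sources used here. Log2 values were analysed as they stood, without pseudocount. The platform annotation gave 23521 probe sets 1 symbol, 1814 several and 8459 none. A gene was tested if its mean reached 4.72, the limit of the dimmest 25% of probe sets.

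Groups were compared with limma 3.58.1 (R 4.3.3, statmod 1.5.0), with 1 mean per group over all 12 arrays and Benjamini-Hochberg adjustment over 17749 genes at 0.05, in 7 comparisons. The fit was also run on simulated arrays with known changes and independent normal noise. These held no arrays that deviate together and no outlying array, so no conclusion on the real arrays is drawn from them. The members, lists and tests were chosen with earlier results of these data known. Named with every array's value were the 4 members of lowest p in each comparison. The genes of the paragraphs on variation were added after their values were seen. Deviations of same-numbered wild-type arrays of both populations correlated at 0.30 to 0.62, those of knockout arrays at 0.09 to 0.43 and those across genotypes at -0.10 to 0.19. Only the wild-type differences were read by pair, although knockout arrays 3 correlated at 0.43, above wild-type pairs 1 (0.36) and 3 (0.30). The random replicate block by genotype and number covered both genotypes. Alternatives covered filters, scaling, variance models, probe set choice, replicate blocks and left-out arrays.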

Additional observations from a re-analysis of the deposited data

How the results depend on the processing

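In each of the 7 comparisons limma called 0 of the 25 members, and it called 0 under each of the 23 alternatives. These were no filter or the lowest 50% left out (24 members tested), quantile normalization, median centring, a trended and robust variance, array weights, the compared groups alone (for the 4 pairwise comparisons), the mean of all probe sets, both replicate blocks, each of the 12 arrays left out, and, chosen after seeing the data, both number-2 knockout arrays left out. The lowest adjusted p of any member under any of them was 0.125, without knockout whole leukemia array 1. With the replicate number as a block, 0 members were called in any comparison. With the random replicate block by genotype and number it was also 0, so that neither block changed a call. The differences of the members of lowest p, 632 values over the alternatives, kept their direction in 632. These members were picked by low p in the same arrays, and the alternatives reuse most of these arrays. A change of direction was therefore unlikely from the outset, and no conclusion is drawn from this count. The members with an unadjusted p under 0.05 numbered 0 to 3 in L-GMP, 0 to 2 in whole leukemia and 1 to 4 in the genotype average, and for the populations 0 to 2 in the wild type, 0 to 3 in the knockout and 2 to 4 in the average. Genes called over the whole array ranged from 1 to 51 in the genotype average and 0 to 4 in L-GMP, and for the populations from 0 to 40 in the knockout and 0 to 9 in the average. With 3 arrays a group, the 95% interval of a typical member reached 0.43 log2 to either side, before any adjustment for the number of genes.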
